A study of Mus musculus with 103 samples.

Results

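The genes described here are Hnrnpa1, Hnrnpa2b1, Hnrnpab, Hnrnpu and Pcbp1, 5 of the 7894 genes in the deposited expression table. They were chosen by name, with earlier results of these data known, so their p-values and counts are not those of a blind choice. All 5 encode proteins that bind RNA in the nucleus and, for most of them, in the cytoplasm as well. Their RNA was measured in 21 embryos made with whole sperm and 82 made with sperm heads, each an FVB mouse embryo sequenced on its own at the 2-cell stage, 28 h after intracytoplasmic sperm injection (ICSI), in which a sperm or its isolated head is injected straight into an oocyte. Oocytes in every group came from females on a Control diet. The groups were 12 embryos from whole rete sperm (rete whole), 9 from whole cauda sperm (cauda whole), 23 from rete testis sperm heads of males fed a Low Protein diet (rete LP), 22 from rete heads of Control-fed males (rete Control), 17 from cauda epididymis heads of Low Protein males (cauda LP) and 20 from cauda heads of Control-fed males (cauda Control). The diet of the whole-sperm donors is marked as C in the table's header and is not in the sample labels. The rete testis is where sperm leave the testis, and the cauda is the last part of the epididymis, where they are stored after maturation. The labels do not tie embryos to a father, an oocyte donor or an injection day, so p-values measure the spread between embryos, part of which may be technical.

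Heterogeneous nuclear ribonucleoproteins (hnRNPs) coat new transcripts as these leave RNA polymerase II, and they act in splicing, export, stability and translation of messenger RNA. The poly(C)-binding proteins share the KH domain with hnRNP K and are counted among the hnRNPs as the E group. In the mouse the main wave of embryonic transcription begins at the 2-cell stage, while RNA stored in the oocyte is being removed, so that the RNA of a 2-cell embryo is a mixture of stored and newly made molecules.

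Hnrnpa1, a splicing regulator that also shuttles messenger RNA to the cytoplasm, lies at chr15:103239943-103246698. Hnrnpa2b1, its close relative, which also sorts microRNAs into vesicles, lies at chr6:51460434-51470048. Hnrnpab encodes an A/B-type protein that binds RNA and single-stranded DNA, at chr11:51600100-51606881. Hnrnpu encodes the nuclear scaffold protein also called SAF-A, at chr1:178321108-178338891. Pcbp1 encodes a poly(C)-binding protein that is also an iron chaperone, and it has 1 exon, at chr6:86524480-86526189, on the same chromosome as Hnrnpa2b1. Positions are those of the GRCm38.p6 assembly, also called mm10.

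All 5 genes were lower in whole-sperm embryos, as were 34.3% of all genes in the cauda and 19.5% in the rete comparison. A part of promoter sequence in this was not tested. The 150 bases before each RefSeq start site (GRCm38.p6) are shown, each read 5′ to 3′ on the strand of its gene. For Hnrnpa1, Hnrnpa2b1 and Hnrnpu they lie within the outer bounds of the gene.
Hnrnpa1: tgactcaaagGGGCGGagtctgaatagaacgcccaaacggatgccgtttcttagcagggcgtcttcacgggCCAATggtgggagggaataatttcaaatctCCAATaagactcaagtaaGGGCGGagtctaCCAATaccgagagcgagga
Hnrnpa2b1: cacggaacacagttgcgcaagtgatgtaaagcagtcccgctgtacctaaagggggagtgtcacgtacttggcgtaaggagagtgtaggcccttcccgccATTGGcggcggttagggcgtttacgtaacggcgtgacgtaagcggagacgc
Hnrnpab: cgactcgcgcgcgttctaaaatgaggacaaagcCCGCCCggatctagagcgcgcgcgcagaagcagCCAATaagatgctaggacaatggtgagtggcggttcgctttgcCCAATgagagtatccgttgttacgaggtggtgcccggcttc
Hnrnpu: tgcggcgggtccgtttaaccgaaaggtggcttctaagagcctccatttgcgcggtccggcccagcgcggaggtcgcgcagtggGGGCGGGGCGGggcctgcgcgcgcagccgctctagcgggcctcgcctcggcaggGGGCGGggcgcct
Pcbp1: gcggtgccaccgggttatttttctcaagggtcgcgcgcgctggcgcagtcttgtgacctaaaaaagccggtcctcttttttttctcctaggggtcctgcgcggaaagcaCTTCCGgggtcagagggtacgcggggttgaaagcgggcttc
Capitals mark matches on either strand to CCAAT, the core of the site of nuclear factor Y, GGGCGG, the core of the Sp1 site, and CGGAAG, the core of the site of ETS factors. TATAAA was also searched and was in none of the 5 windows. CCAAT or its complement was found 3 times in the Hnrnpa1 window, 2 times in that of Hnrnpab and 1 time in that of Hnrnpa2b1. GGGCGG or its complement was found 3 times in the Hnrnpu window, the first pair sharing a base, 2 times in that of Hnrnpa1 and 1 time in that of Hnrnpab. The Pcbp1 window held 1 match to CGGAAG and none to the other motifs. Of 27025 mouse promoter windows of the same length, 25.3% held CCAAT, 29% GGGCGG, 10.5% CGGAAG and 8.08% TATAAA. No motif was shared by all 5 windows, and a match of letters is not a measured binding site.

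The embryos were sequenced to between 529863 and 6058308 reads each, as recovered from the step that 1 read makes in the deposited values. Median depth was 2806572 reads in rete whole and 4091157 in cauda whole embryos, against 1056545 to 1197679 in the head groups. All 8 genes of a list of 2-cell embryo genes were in the table, with a summed level of at least 472 CPM (a gene's reads as a share of the embryo's reads, scaled to a fixed library size) in every embryo, so the markers of the labelled stage were present. Of markers of other cells, 3 of 7 cumulus, 2 of 5 sperm, 1 of 6 testicular somatic and 1 of 4 epididymal genes had a row, and the rest were not analysed here. Rete LP embryos 20 and 21, and 22 and 23, were the closest pairs of all (Pearson's r across genes of 0.97 and 0.94), though their reads still differed by more than sampling (4.36 and 6.34 times the Poisson variance, against a median of 36.7 over pairs within groups). Rete LP embryo 11 stood apart, with 6095 genes at 1 CPM or more against a mean of 7582 in its group.

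All 5 genes were well measured. None of their 515 values was 0, and in head embryos their mean levels stood at the 86th to 97th percentile of all genes. The lowest value of all, 6.65 CPM for Hnrnpab in rete whole embryo 1, came from 5 reads. Per kilobase of mean annotated transcript length, Hnrnpa1 was the highest in cauda Control embryos at 341 ± 132 CPM per kb, followed by Hnrnpab at 286 ± 155, Hnrnpa2b1 at 161 ± 62.2, Pcbp1 at 113 ± 36.7 and Hnrnpu at 49.3 ± 17.1 CPM per kb (SD, n = 20). Hnrnpu came last on this scale because its 7640-base transcript is by far the longest of the set. Levels of 2 genes carry a limit of counting. Hnrnpab in 75 embryos and Hnrnpa1 in 31 did not come to whole reads (tolerance 0.003 reads), while the other 3 genes did in every embryo, as did 36.6% of all genes. Hnrnpa1 has 12 annotated transcripts elsewhere that match at least 100 bases of it at 95% identity or more, 11 of them pseudogenes. By the outer bounds of the genes, Hnrnpab overlaps Phykpl on the opposite strand over 3165 bases, and Hnrnpu overlaps Cox20 by 1586 bases. A Phykpl transcript matched 726 bases (30.6%) of the longest Hnrnpab transcript, while no transcript of another gene matched Hnrnpu at these limits. Whether the authors' counting used strand is not given in the sources used here, so reads from the stretch shared by Hnrnpab and Phykpl cannot be told apart.

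**Figure D1:**
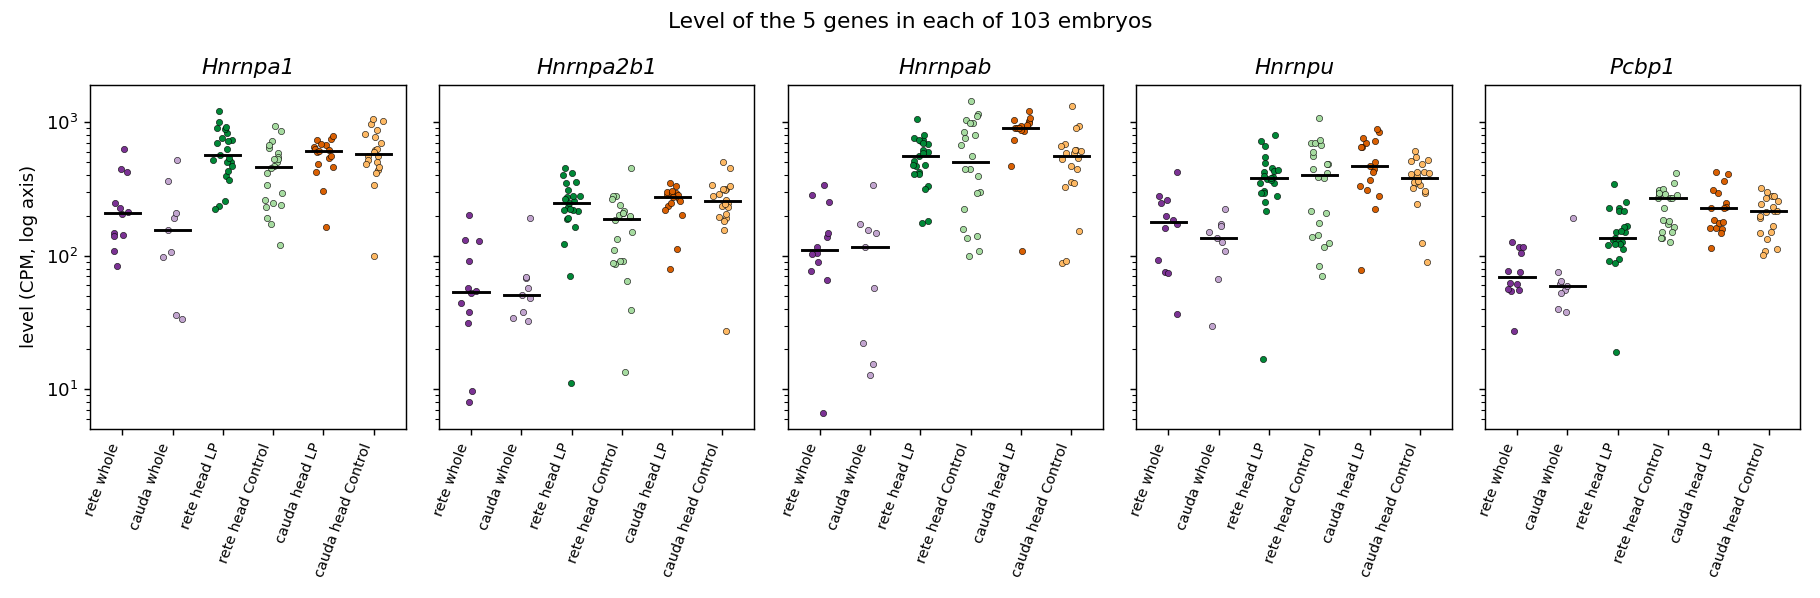
Level of each gene (CPM, log axis) in every embryo of the 6 groups; each point is 1 embryo and the bar is the group median. For all 5 genes the medians of both whole-sperm groups, at left, lie below the medians of the 4 head groups, and Pcbp1 is lower in rete LP than in rete Control embryos.

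The order of the 6 group means was the same for every gene at its lower end, with rete whole next to last and cauda whole last, and differed at its upper end. Hnrnpab was highest in cauda LP embryos at 872 ± 252 CPM, then rete Control at 598 ± 406, rete LP at 555 ± 211, cauda Control at 545 ± 295, rete whole at 144 ± 98.9 and cauda whole at 116 ± 105 CPM. Hnrnpu also had its highest mean in cauda LP (510 ± 233 CPM), while Hnrnpa1 had it in rete LP (624 ± 260), Hnrnpa2b1 in cauda Control (266 ± 102.8) and Pcbp1 in rete Control embryos (241 ± 81.8 CPM). Between neighbours in these orders, the gap was larger than the SD of both groups only at the step between the lowest head group and rete whole, and there for 4 of the 5 genes. For Hnrnpa1 that gap, 203 CPM, was below the SD of rete Control embryos (226 CPM). Neighbouring head groups, and the whole-sperm groups, did not differ by more than their spread for any of the 5.

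The clearest difference was between embryos from whole sperm and from heads of the same source. All 5 genes fell in whole-sperm embryos, from cauda and from rete sperm alike. They belonged to a broad change: limma, fitted to all genes with a Benjamini-Hochberg adjusted p under 0.05, called 58.7% of 7894 genes in the cauda comparison (34.3% lower and 24.4% higher) and 33.6% in the rete comparison (19.5% lower and 14.1% higher). Fold changes here are differences of mean log2(CPM + 1) with their standard errors, which understate the change of low values.

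Hnrnpab had the largest log2 difference of the set in both sources, with intervals that overlapped those of other members. Its values in cauda whole embryos ran from 12.7 through a median of 115 to 339 CPM, against 87.9, 562 and 1334 CPM in cauda Control embryos. All 9 cauda whole embryos lay below the cauda Control median and 4 below the lowest cauda Control embryo, so the groups overlapped only in part. The difference was -2.66 ± 0.43 (adjusted p = 1.59e-07). In rete whole embryos Hnrnpab ran from 6.65 through 111 to 341 CPM, against 100, 503 and 1455 CPM in rete Control embryos. All 12 rete whole embryos were below the rete Control median, with a difference of -2.06 ± 0.38 (adjusted p = 3.69e-05).

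Pcbp1 had the most whole-sperm embryos below the lowest head embryo of their source. Counted from the other side, 21 of 22 rete Control embryos lay above every rete whole embryo, the most of the set. In cauda 13 of 20 Control embryos lay above every cauda whole embryo, fewer than the 18 for Hnrnpu, so the separation was not the cleanest there by this count. Cauda whole embryos had 38.1 CPM at the lowest, 59.4 at the median and 192 at the highest, against 102, 215 and 324 CPM in cauda Control embryos. In 8 of 9 cauda whole embryos Pcbp1 was under every cauda Control value, and embryo 3 alone reached into their range (difference -1.62 ± 0.26, adjusted p = 1.2e-07). Rete whole embryos had 27.2, 68.9 and 126 CPM, against 126, 270 and 417 CPM in rete Control embryos. Here 11 of 12 rete whole embryos lay below the lowest rete Control embryo, and the highest of them exceeded it by under 1 CPM. This difference, -1.65 ± 0.23 (adjusted p = 1.47e-07), had the 4th smallest p of all 7894 genes in the rete comparison, whereas in the cauda comparison Pcbp1 ranked 383.

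The A-type pair fell less evenly. Hnrnpa1 in cauda whole embryos ran from 33.4 through 155 to 525 CPM, against 100, 581 and 1062 CPM in cauda Control embryos (difference -2.05 ± 0.32, adjusted p = 6.92e-08). In rete whole embryos it ran from 84.5 through 209 to 629 CPM, against 121, 464 and 938 CPM in rete Control embryos (difference -0.91 ± 0.28, adjusted p = 0.0108). The groups overlapped in both, and 1 of 12 rete whole embryos was above the rete Control median of Hnrnpa1. Hnrnpa2b1 had 32.3, 51.0 and 191 CPM in cauda whole embryos as lowest, median and highest, against 27.3, 255 and 502 CPM in cauda Control embryos (difference -2.07 ± 0.39, adjusted p = 5.13e-06). It had 7.98, 53.7 and 201 CPM in rete whole embryos, against 13.6, 189 and 456 CPM in rete Control embryos (difference -1.47 ± 0.35, adjusted p = 0.000915). Every cauda whole embryo was below the cauda Control median of Hnrnpa2b1, and 11 of 12 rete whole embryos were below that of rete Control.

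Hnrnpu had 29.5, 136 and 224 CPM in cauda whole embryos, against 89.3, 380 and 606 CPM in cauda Control embryos (difference -1.58 ± 0.38, adjusted p = 0.000261). Its values were 36.5, 179 and 427 CPM in rete whole embryos, against 70.5, 403 and 1075 CPM in rete Control embryos (difference -1.04 ± 0.34, adjusted p = 0.0142). All 9 cauda whole embryos and 11 of 12 rete whole embryos were below the median of their head group. The rete call was lost in a rank-sum test (adjusted p = 0.0622) and with sequencing depth as a covariate (-0.78, adjusted p = 0.0958).

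**Figure D2:**
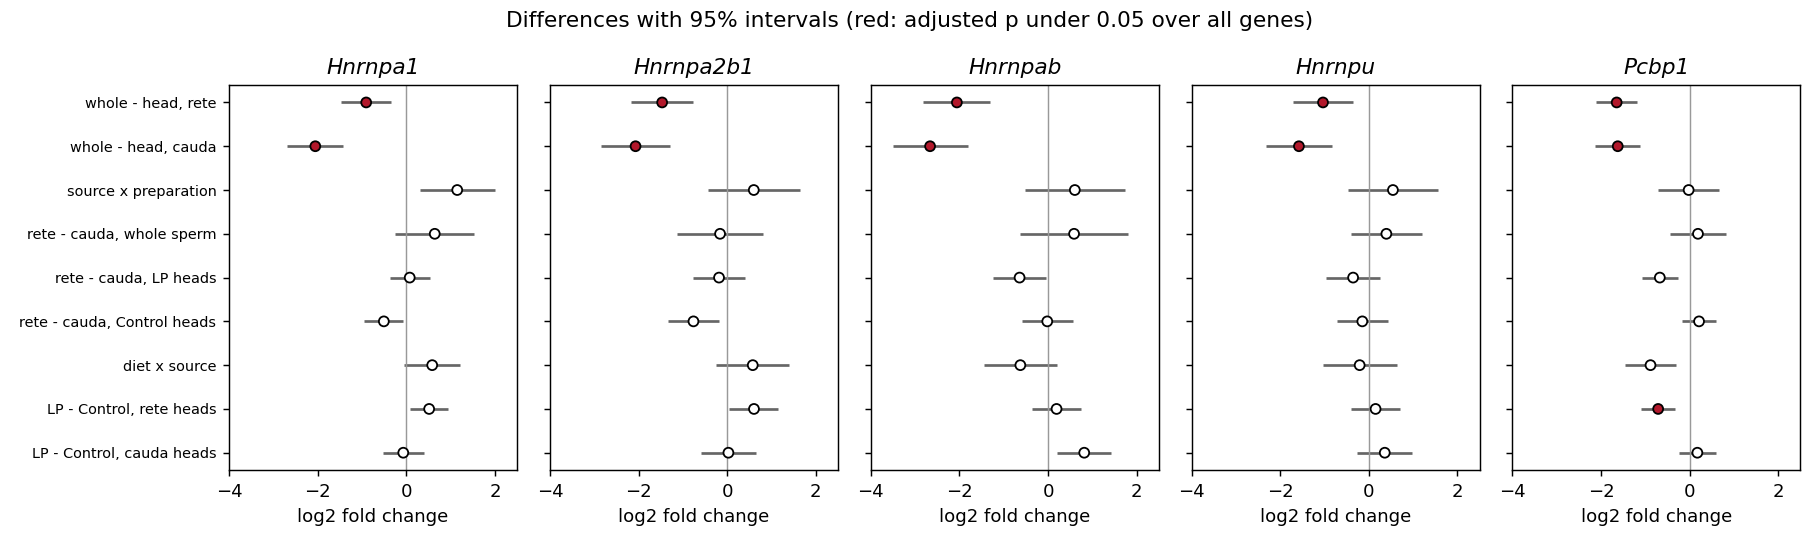
Log2 fold change of each gene (log2(CPM + 1) scale, in the direction named at left) in each comparison, with 95% intervals from the limma fit; filled points passed an adjusted p of 0.05 over all genes tested. Both whole-minus-head differences are below 0 and filled for all 5 genes, and of the other comparisons only Pcbp1 in rete LP against rete Control heads is filled.

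Depth and a stage index formed from expression moved with this comparison. All embryos carried the same 2-cell label, and stage itself was not measured. The index of each embryo was the mean log2(CPM + 1) of 38 genes of the nucleolus and ribosome assembly, minus that of 21 oocyte-derived genes. It averaged -3.01 ± 0.99 in rete whole and -3.70 ± 1.04 in cauda whole embryos, against -1.59 ± 1.86 in rete Control and -0.37 ± 1.40 in cauda Control embryos (SD). The oocyte-derived genes summed to a median of 13536 CPM in rete whole and 12892 CPM in cauda whole embryos, against 9713 in rete Control and 7223 CPM in cauda Control embryos. Preparation, depth and stage index therefore differ between the same groups and cannot be told apart. When the stage index entered the fit as a covariate, the share of all genes called was 7.44% in the cauda and 11.5% in the rete comparison. Then 2 genes of the set passed in the cauda comparison, Hnrnpa1 (-1.15, adjusted p = 0.0201) and Pcbp1 (-1.11, adjusted p = 0.00878). In the rete comparison 3 passed, Hnrnpab (-1.25, adjusted p = 0.00134), Hnrnpa2b1 (-0.77, adjusted p = 0.0467) and Pcbp1 (-1.43, adjusted p = 3.11e-06). Pcbp1 was the gene called in both. These fits used a common slope of the index over all groups. The index ran from -5.27 to -1.74 in cauda whole embryos, against -4.67 through a median of -0.25 to 1.31 in cauda Control embryos. Pcbp1 was also the gene of the set least related to the index in head embryos (rho = 0.21). These fits therefore cannot tell preparation and index apart. The sperm genes Odf2 and Ldhc summed to 166 to 795 CPM in rete whole and 92.2 to 391 CPM in cauda whole embryos, against 132 to 490 CPM in rete Control and 121 to 679 CPM in cauda Control embryos, and 1 of the pair fell in the cauda comparison. Of the cumulus genes 1 rose and 2 fell there. Gata4, listed as a testicular somatic gene, also fell, from a median of 318 CPM in cauda Control to 94.3 CPM in cauda whole embryos. It was thus also present in embryos from epididymal sperm heads. The part of these genes in the results was not tested. Since values are shares of an embryo's reads, a loss of one RNA and a gain of others cannot be told apart either.

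Diet of the male was compared within each sperm source. In embryos from rete heads, Pcbp1 fell under the Low Protein diet and was the 1 gene of the 5 to pass, where 1.49% of all genes passed (1.1% lower and 0.393% higher). The balance of directions over all genes rested on rete LP embryo 11, without which 533 genes were higher and 256 lower, against 31 higher and 87 lower with it, and median-of-ratios scaling also turned it (199 higher and 128 lower). Pcbp1 values in rete LP embryos were 19 CPM at the lowest, 135 at the median and 342 at the highest, against 126, 270 and 417 CPM in rete Control embryos. In 22 of 23 rete LP embryos Pcbp1 was below the rete Control median, and in 8 it was below every rete Control embryo. Its mean was 155 ± 67.9 CPM in rete LP and 241 ± 81.8 CPM in rete Control embryos (SD, n = 23 and 22), 0.642 times the rete Control mean, with a log2 difference of -0.71 ± 0.19 (adjusted p = 0.0341). This call was lost when only these 2 groups entered the fit (adjusted p = 0.113) and with weights per embryo (-0.49, adjusted p = 0.154), and it held without embryo 11 and with the near-alike embryos averaged (-0.77, adjusted p = 0.0327).

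None of the other 4 genes passed in the same comparison. Hnrnpa1 averaged 624 ± 260 CPM in rete LP and 454 ± 226 CPM in rete Control embryos (0.51 ± 0.21, adjusted p = 0.143), and 17 of 23 rete LP embryos were above the rete Control median. Hnrnpa2b1 averaged 251 ± 106 CPM in rete LP and 173 ± 101 CPM in rete Control embryos (0.60 ± 0.28, adjusted p = 0.184), with 18 of 23 above that median. Without rete LP embryo 11, where Hnrnpa2b1 was at 11.1 CPM, its difference was 0.79 (adjusted p = 0.0308), in a fit that called 789 genes against 118 with that embryo. Hnrnpab (0.19 ± 0.28) and Hnrnpu (0.15 ± 0.28) had no direction that held: their means were 555 ± 211 and 403 ± 169 CPM in rete LP, against 598 ± 406 and 406 ± 269 CPM in rete Control embryos. For Hnrnpu, 14 of 23 rete LP embryos were below the rete Control median, and weights per embryo turned both differences negative (-0.17 and -0.14). Their 95% intervals were -0.36 to 0.75 and -0.41 to 0.71. The stage index averaged -0.24 ± 1.07 in rete LP and -1.59 ± 1.86 in rete Control embryos, and of 3 cumulus genes 1 was called lower and 2 had positive differences. Their sum ran from 7.31 through a median of 285 to 381 CPM in rete LP and from 133 through 252 to 446 CPM in rete Control embryos. The part of these in the differences was not tested. With the stage index as a covariate, where 0.709% of all genes passed, Pcbp1 was the 1 gene of the set called (-0.90, adjusted p = 0.00392). The difference of Hnrnpa1 was 0.13 in that fit, and those of Hnrnpab (-0.58, adjusted p = 0.0517), Hnrnpu (-0.48, adjusted p = 0.32) and Hnrnpa2b1 (-0.07, adjusted p = 0.918) were negative.

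In embryos from cauda heads the diet comparison called no gene of the 7894 with limma (0%), against 163 at an unadjusted p under 0.05, and the rank-sum test also called 0. With weights per embryo limma called 14 genes, all higher, and none of the 5. Hnrnpab had the largest difference of the set. Its values in cauda LP embryos ran from 109 through 912 to 1223 CPM, against 87.9, 562 and 1334 CPM in cauda Control embryos. Of 17 cauda LP embryos 15 were above the cauda Control median, and the difference was 0.82 ± 0.31 (unadjusted p = 0.00953, the 36th smallest of all genes, limma adjusted p = 0.999, and 0.0806 with weights per embryo). Hnrnpu had a difference of 0.36 ± 0.31, Pcbp1 of 0.17 ± 0.21, Hnrnpa2b1 of 0.03 ± 0.31 and Hnrnpa1 of -0.07 ± 0.23. The interval for Pcbp1, -0.25 to 0.59, did not include its rete difference of -0.71. The difference between the diet effects, rete minus cauda, was -0.88 ± 0.28 for Pcbp1 and did not pass (adjusted p = 0.253, against 0.19% of genes that did). For Hnrnpab it was -0.62 ± 0.42 (adjusted p = 0.614). With the stage index as a covariate, where 0.57% of all genes passed, both were called, Pcbp1 at -1.06 (adjusted p = 0.0339) and Hnrnpab at -1.35 (adjusted p = 6.95e-05), so the call depended on that covariate.

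Sperm source was compared within each diet and among whole-sperm embryos, and none of the 5 genes passed, where limma called 0.038% of genes between Control heads, 0.076% between LP heads and 0% between whole sperm. An unadjusted p under 0.05 was found for 2 of the 5 between Control heads, where 22.1% of all genes had one, and for 2 between LP heads, where 7.7% had one. Hnrnpa2b1 averaged 173 ± 101 CPM in rete Control and 266 ± 102.8 CPM in cauda Control embryos (-0.76 ± 0.29, adjusted p = 0.167), and Hnrnpa1 averaged 454 ± 226 CPM in rete Control and 624 ± 242 CPM in cauda Control embryos (-0.51 ± 0.22, adjusted p = 0.184). Both were below the cauda Control median in most rete Control embryos, Hnrnpa2b1 in 18 and Hnrnpa1 in 16 of 22. Between LP heads the 2 were Pcbp1 and Hnrnpab. Pcbp1 averaged 155 ± 67.9 CPM in rete LP and 237 ± 94.1 CPM in cauda LP embryos (-0.67 ± 0.20, adjusted p = 0.247, 20 of 23 below the cauda LP median). Hnrnpab averaged 555 ± 211 CPM in rete LP and 872 ± 252 CPM in cauda LP embryos (-0.64 ± 0.30, adjusted p = 0.61, 22 of 23 below that median). These comparisons share the groups of the diet comparisons and are no separate evidence.

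Among whole-sperm embryos limma called 0 of 7782 genes, against 662 at an unadjusted p under 0.05, and the rank-sum test called 0. The differences of the 5 genes, rete minus cauda, ran from -0.16 ± 0.46 for Hnrnpa2b1 to 0.64 ± 0.43 for Hnrnpa1, and none had an unadjusted p under 0.05. With 12 and 9 embryos the intervals were wide, from -0.64 to 1.81 for Hnrnpab. Whether the whole-minus-head difference depended on sperm source was tested as an interaction, which called 0.861% of all genes (0.836% positive and 0.0253% negative) and none of the 5. Hnrnpa1 came closest at 1.15 ± 0.43 (adjusted p = 0.125), from differences of -0.91 in rete and -2.05 in cauda embryos. Without cauda whole embryo 3 this reached 1.39 (adjusted p = 0.0364), in a fit that called 404 genes against 68 with that embryo. For Pcbp1 the interaction was -0.02 ± 0.34, with an interval of -0.71 to 0.66.

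Across embryos within groups, most pairs of the 5 genes were positively related, to different degrees. Relations were computed on log2(CPM + 1) after taking out each group's mean, as Pearson's r and Spearman's rho, with 100000 permutations and adjustment over 40 relations. Of the gene pairs among the 82 head embryos, Hnrnpab and Hnrnpu had the highest rho, 0.69 (r = 0.76, permutation p = 1e-05, the smallest these permutations can give, adjusted p = 5e-05). The r was 0.73 without the 2 embryos farthest from the median of Hnrnpab, and 0.60 to 0.89 within single groups. Hnrnpa2b1 followed Hnrnpab (rho = 0.63, r = 0.69) and Hnrnpu (rho = 0.59, r = 0.75), each with permutation p = 1e-05 for both measures. Hnrnpa1 had a rho of 0.56 with Hnrnpa2b1, 0.48 with Hnrnpu and 0.42 with Hnrnpab, which did not hold evenly over groups. Within single groups its r ran from -0.01 to 0.81, from -0.16 to 0.89 and from 0.29 to 0.87. Without the 2 embryos farthest from the median of Hnrnpa1, r was 0.38, 0.37 and 0.48. Hnrnpa1 and Pcbp1 showed no relation that the test could detect (rho = 0.08, r = 0.07, permutation p = 0.476 and 0.519, adjusted 0.529 and 0.557). The other pairs of Pcbp1 had an r of 0.56 with Hnrnpa2b1 (rho = 0.41, permutation p = 1e-05 and 0.0001), 0.51 with Hnrnpu (rho = 0.32, permutation p = 4e-05 and 0.00368) and 0.32 with Hnrnpab (rho = 0.26, permutation p = 0.00311 and 0.0199). The adjusted p of rho was 0.000333, 0.0092 and 0.0378 for these pairs, and r was 0.38, 0.28 and 0.33 without the 2 farthest embryos. In the 21 whole-sperm embryos the highest rho was between Hnrnpa1 and Hnrnpa2b1, at 0.73 (r = 0.62, permutation p = 0.00036 and 0.00267, adjusted 0.00103 and 0.00667, r = 0.57 without the 2 farthest). Pcbp1 was not set apart there: its rho with Hnrnpab was 0.58 (r = 0.53, permutation p = 0.00657 and 0.0147, adjusted 0.0155 and 0.0309, r = 0.61 without the 2 farthest) and that with Hnrnpa1 0.37, while Hnrnpa1 and Hnrnpu had a rho of 0.32. All relations share the reads of an embryo, so that they describe shares and not amounts of RNA.

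**Figure D3:**
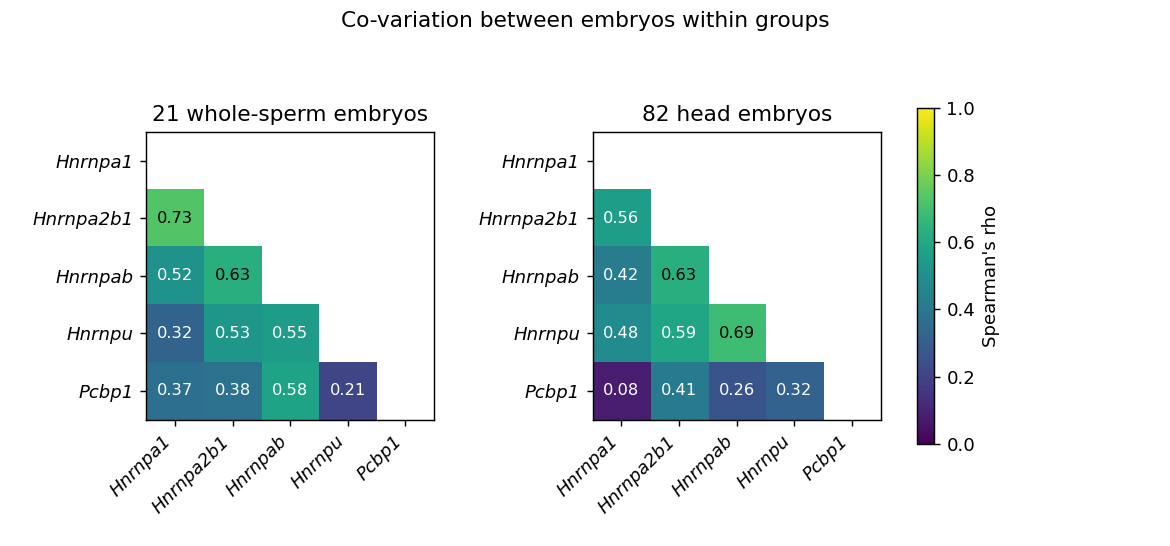
Spearman's rho between each pair of genes over 21 whole-sperm embryos (left) and 82 head embryos (right), on log2(CPM + 1) with group means removed. Pooled over head groups the 4 hnRNP genes have rho of 0.42 to 0.69 with each other, and the lowest value is 0.08 for Hnrnpa1 and Pcbp1. Within single head groups r of Hnrnpa1 and Hnrnpu ran from -0.16 to 0.89.

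The stage index was related to the 5 genes unequally. Within head groups its rho was 0.78 with Hnrnpab (r = 0.87), 0.75 with Hnrnpa2b1 (r = 0.76) and 0.53 with Hnrnpu (r = 0.69), each with permutation p = 1e-05 for both measures and adjusted p of 5e-05 for rho. For Hnrnpa1 rho was 0.41 (r = 0.58, permutation p = 0.00021 and 1e-05). Pcbp1 had a rho of 0.21 (permutation p = 0.0637, adjusted p = 0.111) and an r of 0.33 (permutation p = 0.00311, adjusted p = 0.00691), so its measures fell on different sides of the threshold. Without the 2 embryos farthest from the median index, r was 0.83 for Hnrnpab, 0.71 for Hnrnpa2b1, 0.63 for Hnrnpu, 0.46 for Hnrnpa1 and 0.25 for Pcbp1. Among whole-sperm embryos Hnrnpu had the closest relation to the index (rho = 0.83, r = 0.78, permutation p = 4e-05 and 1e-05), and Pcbp1 the closest to depth (rho = 0.79, r = 0.74, permutation p = 9e-05 and 0.00022, r = 0.66 without the 2 farthest). There the index had a rho of 0.45 with Hnrnpab, 0.38 with Hnrnpa2b1, 0.31 with Pcbp1 and 0.13 with Hnrnpa1, each with an adjusted p over 0.05. In head embryos no gene of the set had a relation to depth with an adjusted p under 0.05.

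**Figure D4:**
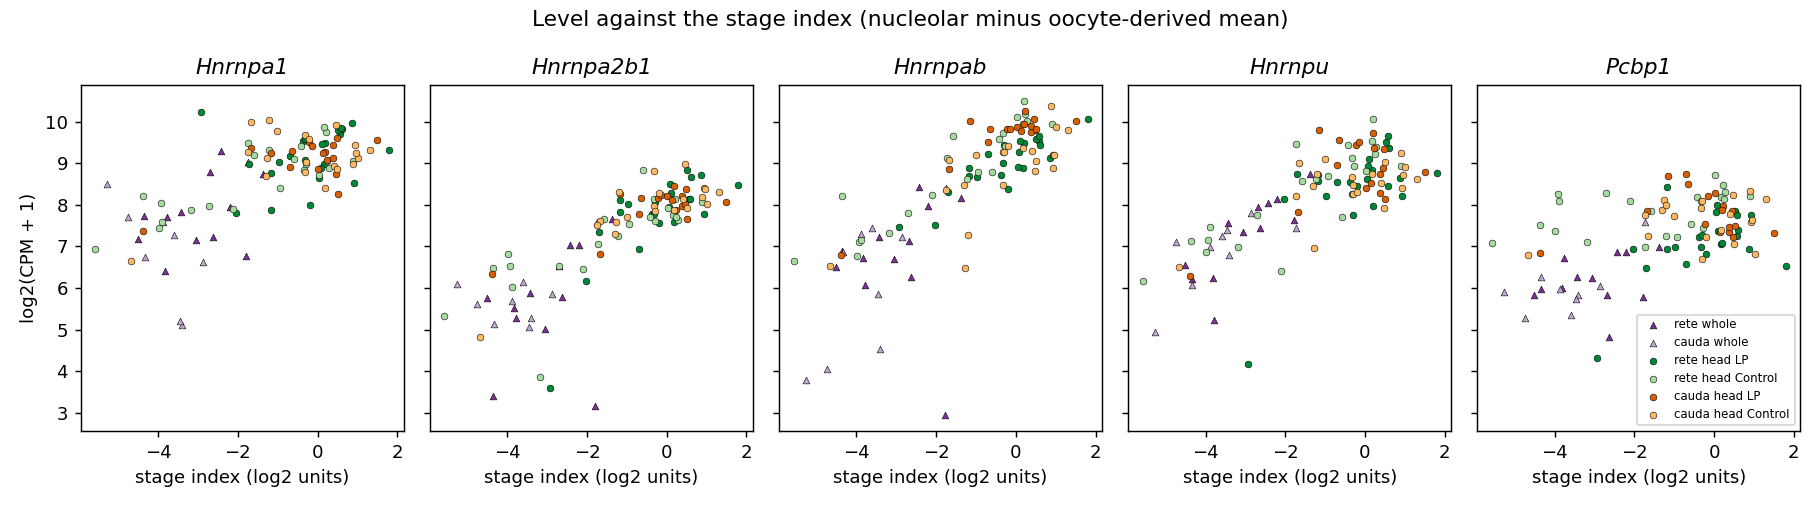
Level of each gene (log2(CPM + 1)) against the stage index (log2 units) in all embryos; triangles are whole-sperm and circles head embryos, coloured by group. Among head embryos Hnrnpab and Hnrnpa2b1 follow the index most closely (rho = 0.78 and 0.75), and Pcbp1 the least (rho = 0.21). Among whole-sperm embryos Hnrnpu follows it most closely (rho = 0.83), and Hnrnpa1 the least (rho = 0.13).

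Single embryos carried the low ends of several genes at once. Cauda LP embryo 13, with a stage index of -4.38, had the lowest value of its group for all 5 genes, from 77.7 CPM for Hnrnpu to 164 CPM for Hnrnpa1. Cauda Control embryo 23 (index -4.67) and rete Control embryo 14 (index -5.58) were each among the lowest 2 of their group for all 5. A low index was not shared by every such embryo. Rete whole embryo 1 was among the lowest 2 of its group for 4 genes, with 6.65 CPM for Hnrnpab and 7.98 CPM for Hnrnpa2b1. Its index of -1.79 was above the group median of -2.87, and it had 752109 reads. Rete LP embryo 11, with an index of -2.93, was different in kind: it was lowest of its group for Hnrnpa2b1 (11.1 CPM), Hnrnpab (175), Hnrnpu (16.9) and Pcbp1 (19 CPM), and highest for Hnrnpa1 (1207 CPM).

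For each gene, the 3 others with the highest rho over the 82 head embryos were taken from 7605 genes, and their rho over the 21 whole-sperm embryos, which had no part in the choice, stands beside it. For Hnrnpa2b1 these were Znhit6, an assembly factor of small nucleolar RNPs (0.61 in whole-sperm, 0.87 in head embryos), Nop58, a core protein of those particles that is also in the nucleolar list (0.72 and 0.84), and Rsl24d1, a ribosome biogenesis factor (0.64 and 0.84). For Hnrnpab they were the splicing factor gene Srsf1 (0.81 in whole-sperm, 0.88 in head embryos), Khdrbs1, which encodes the splicing regulator Sam68 (0.78 and 0.85), and Nol9, an RNA kinase of the nucleolus (0.36 and 0.84). Srsf1 also headed the list for Hnrnpu (0.74 and 0.77), before the cyclin gene Ccnl2 (0.44 and 0.77) and the stress-response phosphatase subunit gene Ppp1r15a (0.42 and 0.77). Hnrnpa1 was closest to AA543401 (0.59 and 0.70), AA415398 (0.54 and 0.70) and Taf1d, a factor of RNA polymerase I (0.59 and 0.67). The values for Pcbp1 were lower, with Hdgf, a growth factor gene (0.64 and 0.52), the zinc exporter gene Slc30a1 (0.13 and 0.46) and Ptma, which encodes prothymosin alpha (0.67 and 0.46).

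Genes that lie head to head with a member, by the outer bounds of the genes, were looked up as well. The start sites used for the windows above lie inside the bounds of Hnrnpa1 and Hnrnpa2b1, so their distance to the neighbour is larger than the gaps given here. Hnrnpa2b1 and Cbx3, which encodes heterochromatin protein HP1 gamma, lie head to head with 105 bases between their bounds. Their rho was 0.66 in whole-sperm and 0.71 in head embryos. Hnrnpa1 and Cbx5, the HP1 alpha gene, have 38 bases between their bounds in the same arrangement, with a rho of 0.08 in whole-sperm and 0.16 in head embryos. Cbx3 averaged 61.4 ± 70.1 CPM in whole-sperm and 211 ± 131 CPM in head embryos, and Cbx5 66.0 ± 33.3 and 148 ± 61.0 CPM (SD, n = 21 and 82).

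Other hnRNP, poly(C)-binding and related RNA-binding genes were taken as a list of 36, of which 33 were in the table. In the cauda whole-minus-head comparison the list had a median log2 difference of -1.12, against -0.08 over all genes. Of its genes 3 rose, 21 fell and 9 did not pass, where 24.4% of all genes rose and 34.3% fell. Those of smallest p that fell were the cold-inducible gene Rbm3 (-2.25 ± 0.31), Hnrnph2, a G-run-binding hnRNP (-3.32 ± 0.52), Hnrnpk, the poly(C)-binding relative of Pcbp1 (-1.95 ± 0.32), and Ewsr1, an RNA-binding partner of transcription and splicing factors (-2.26 ± 0.40). Pcbp3 (1.70 ± 0.42), the cold-inducible gene Cirbp (1.30 ± 0.47) and Raly (0.94 ± 0.39) rose, so the poly(C)-binding family did not move as one: Pcbp1 and Pcbp2 (-0.97 ± 0.23) fell and Pcbp3 rose. Quantile normalization, which moved the median of all genes by 0.32, gave 6 higher and 18 lower genes of the list.

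In the rete whole-minus-head comparison the median of the list was -0.41, against 0.03 over all genes. Of its genes 2 rose, 12 fell and 19 did not pass, where 14.1% of all genes rose and 19.5% fell. Hnrnpd, which binds AU-rich elements (-1.85 ± 0.37), Hnrnph2 (-2.13 ± 0.46), Hnrnpc (-0.92 ± 0.23) and Rbm3 (-1.03 ± 0.27) led the genes that fell, and Pcbp3 (1.29 ± 0.37) and the polypyrimidine tract-binding gene Ptbp3 (1.18 ± 0.36) rose. Pcbp2 did not pass there (-0.41 ± 0.20, adjusted p = 0.105).

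**Figure D5:**
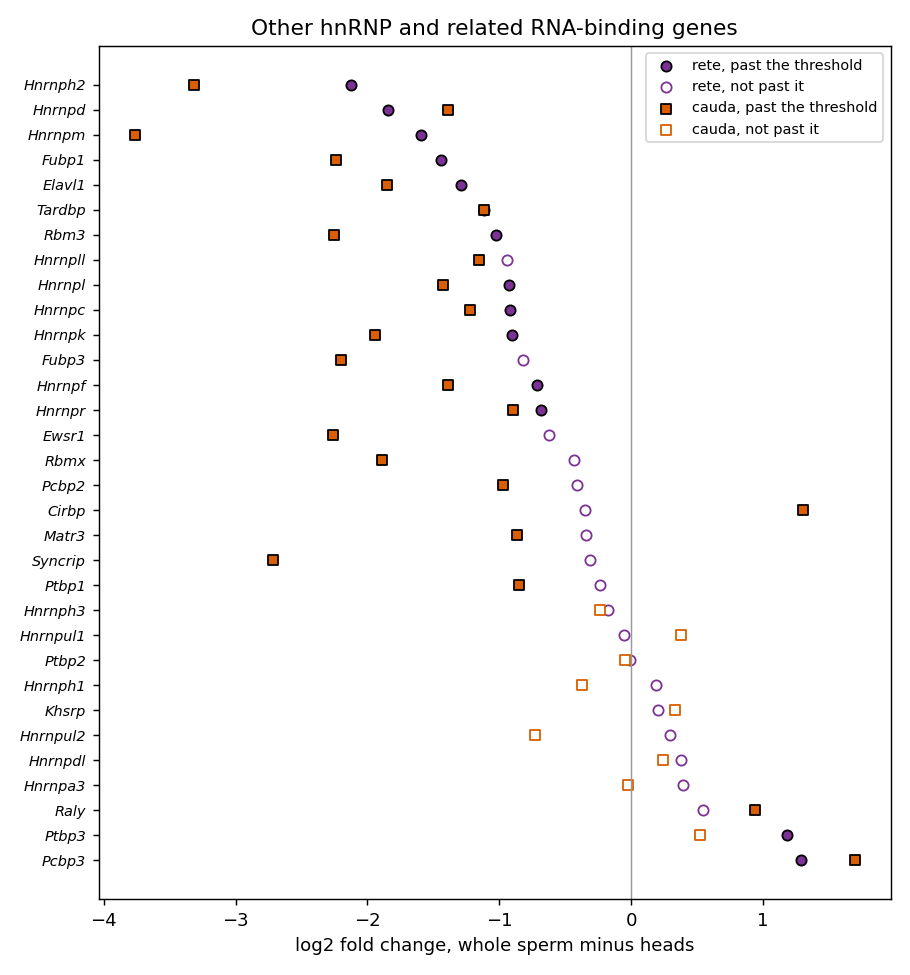
Log2 fold change (log2(CPM + 1) scale, whole sperm minus heads) of 32 other hnRNP, poly(C)-binding and related genes; circles are rete and squares cauda embryos, and filled symbols passed an adjusted p of 0.05. Most filled symbols lie left of 0, and Pcbp3 lies right of 0 in both sources.

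At the settings given under processing below, no gene of the list passed in any of the other comparisons, but some alternatives called a few. Without rete LP embryo 11, 6 were called higher for diet in rete heads, in a fit that called 789 genes. Without cauda whole embryo 3, 4 were called higher in the interaction of source and preparation, in a fit that called 404 genes. For diet in rete heads, 7 of 33 had an unadjusted p under 0.05, as had 22.9% of all genes, among them Fubp1, which encodes a single-stranded DNA- and RNA-binding protein (1.27 ± 0.39, limma adjusted p = 0.0696). In cauda heads none did, and Hnrnpk (-0.49 ± 0.28) and Cirbp (0.55 ± 0.40) had the smallest p. Between the diet effects, Hnrnpk (0.93 ± 0.37) and Fubp1 (1.32 ± 0.59) came first, at adjusted p of 0.468 and 0.495. By sperm source, Hnrnpk (-0.73 ± 0.26) and Hnrnpm (-1.53 ± 0.55) had the smallest p between Control heads, Hnrnpul2 (-0.79 ± 0.27) and Hnrnph3 (-0.84 ± 0.32) between LP heads, and Rbmx (1.03 ± 0.37) and Rbm3 (0.81 ± 0.33) between whole sperm. In the interaction of source and preparation, Syncrip (2.40 ± 0.74, adjusted p = 0.0749) and Ewsr1 (1.64 ± 0.54, adjusted p = 0.093) came closest.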

How the data were processed

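Each embryo was lysed in TCL buffer and sequenced from a single-cell Nextera library, per the labels' protocols. Bowtie and the mm10 genome are named by the submitters' processing notes, while their versions, the counting tool and the use of strand are not stated there. Values in the 1 table that the authors deposited (7894 genes) were read as CPM. The sum of a column was 92.08 to 98.15% of the fixed library size, and within an embryo the low values were multiples of 1 step (a median of 86.35% whole reads, tolerance 0.001 reads, the rest in hundredths of a read). Zeros were deposited as 0.1, and no gene had a value under 5 in the sorting column. Since part of the reads was fractional, values were tested on a log scale and not as counts.

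Values were tested as log2(CPM + 1) with limma 3.58.1 in R 4.3.3 (trend, robust, two-sided) on genes that reached 5 CPM in at least 9 embryos. Diet and source in heads were fitted over the 82 head embryos, source in whole sperm over 21, and preparation over all, with adjustment over all genes tested. Relations, promoters and levels were computed in Python 3.11.15 with scipy 1.17.1. On simulated data with the real spreads, 4-fold changes were recovered in 95% of cases for diet in rete heads, 90% in cauda heads, and 74% for source in whole sperm, and 2-fold changes in 31%, 26% and 17%. The 5 genes are named in every comparison; of the list of related genes, those past the threshold are named, at most 4 per direction by smallest p, or the 2 of smallest p where none passed (Pcbp2 was added after its values were seen, and 1 gene of the list is counted but not reported here). Members and lists were chosen with earlier results of these data known. Alternatives covered pseudocount, filter, scaling, embryos, weights, covariates, the replicate block and a rank-sum test. Promoter sequences and positions are from RefSeq on GRCm38.p6 and matched for 5 of 5 genes. Transcript lengths and matching transcripts elsewhere (BLAST) are from a GENCODE annotation of the same assembly.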

Additional observations from a re-analysis of the deposited data

Results flagged for a closer look

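Cauda whole embryo 3 was far above the other 8 embryos of its group for 3 of the 5 genes. The gap in CPM was past the 95% limit of Dixon's test on the share of the range, which was not run on log2 values. Pcbp1 stood at 192 CPM there, against 75.5 CPM in the next embryo. Hnrnpa2b1 was at 191 CPM, against 69.7 CPM in the next. Hnrnpab was at 339 CPM, against 173 CPM in the next. As log2(CPM + 1), Hnrnpab was at 8.41, against 7.44 in the next embryo and 3.78 in the lowest, so its flag depends on the scale. The embryo also had the highest stage index of its group, -1.74, and 4401138 reads. For normally distributed values chance alone puts about 5% of groups past this limit, and CPM values need not be so distributed. These 3 values come from 1 embryo. Without it the whole-minus-head differences of all 5 genes in the cauda comparison stayed past the threshold, with 5 genes called.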

How the results depend on the processing

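All 5 genes were called lower in both whole-minus-head comparisons under every alternative run except 3: the stage index as a covariate (2 called in cauda, 3 in rete), and, for rete Hnrnpu alone, the rank-sum test and sequencing depth as a covariate, which left 4. With the stage index the cauda difference of Hnrnpu turned to 0.0637 (adjusted p = 0.937). The Pcbp1 difference by diet in rete heads was negative under all 16 alternatives, from -0.90 to -0.49, and called under 13; 0 genes of the set were called with only the groups compared in the fit, with weights per embryo and with the replicate block. That count was 2, Pcbp1 and Hnrnpa2b1, without 3 embryos in which few genes were detected (rete LP 11, cauda Control 19, cauda whole 5) and without rete LP embryo 11, where the count over all genes was 810 and 789 against 118. With the stage index 2 genes (of 45 over all genes, 15 without it) passed for the difference between diet effects, Pcbp1 (-1.06, adjusted p = 0.0339) and Hnrnpab (-1.35, adjusted p = 6.95e-05), and 1, Hnrnpab, for source in LP heads (of 24 over all genes), as with weights per embryo (1, of 260), against 0 of the set and 6 over all genes in the fit without either. Without cauda whole embryo 3, 1 gene of the set passed in the interaction of source and preparation (of 404 over all genes, 68 with that embryo). The causes were not tested.

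Replicate numbers did not pair embryos: for diet in rete heads, same-numbered embryos correlated at -0.44 to 0.36, with 10 of 22 pairs over 0.1 and 1 pair matching best with its own number. With the replicate block the diet difference of Pcbp1 was -0.69 (adjusted p = 0.0513), a count of 0, and the block changed no other call of the set. Over all genes, the count for diet in rete heads ranged from 14 to 810 against 118, for preparation from 587 to 5463 in cauda against 4634 and from 910 to 4393 in rete against 2654, and for source by preparation from 0 to 404 against 68. Of 655 values of single genes, 34 changed sign, 33 of them where neither value was called. Sequencing depth as a covariate, leaving out cauda whole embryo 3 or rete LP embryo 11, and averaging near-alike embryos were chosen after seeing the data. A rank-sum test was not run for interactions. With 9 to 23 embryos a group, 2-fold changes were often missed on simulated data, so a gene that did not pass is not shown to be unchanged.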
